A study of Mus musculus with 4 samples.

Results

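Spi1, Cebpa, Cebpb and Irf8 encode transcription factors of the myeloid lineage, and the chromatin around these 4 genes was examined by Hi-C in mouse haematopoietic progenitors with and without Stag2. Each gene was taken as a fixed interval of the mm9 genome that was set to hold the gene and, where one was named, its enhancer. The Spi1 interval, with its upstream enhancer, was chr2:90900001-90980000. The Cebpa interval, with the enhancer 37 kb from the gene, was chr7:35880001-35960000. The Cebpb interval was chr2:167480001-167560000, and the Irf8 interval, with its downstream enhancers, was chr8:123240001-123360000. Positions of exons and enhancers inside the intervals were not analysed here. All 18 bins of 20 kb in the intervals had a score in every library. With 1 Mb of flank on each side the 4 windows held 387 scored bins of 418 listed, out of 117252 scored bins of 131957 in the genome. The 31 unscored bins all lay in the Spi1 window, between chr2:89900001 and chr2:90520000.

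PU.1, the product of Spi1, opens myeloid enhancers and sets the balance between myeloid and B-lymphoid fates by its dose. C/EBPα drives the commitment of progenitors to granulocytes and monocytes, C/EBPβ takes over granulocyte production under stress, and IRF8 directs progenitors towards monocytes and dendritic cells and away from neutrophils. All are controlled by enhancers at a distance from their promoters, so contacts within their domains matter for their use. Cohesin, of which Stag2 encodes one alternative subunit, draws DNA into loops that are anchored where CTCF is bound. Among named protein-coding genes, in the order of the RefSeq annotation of GRCm38.p6, Spi1 lies between Slc39a13 and Mybpc3, Cebpa between Cebpg and Slc7a10, Cebpb between Tmem189 and Ptpn1, and Irf8 between Cox4i1 and Foxf1.

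The study compared 2 libraries labelled Stag2 knock-out with 2 labelled Stag2 wildtype. Both came from bone marrow depleted of cells with lineage markers, and DNA was cut with DpnII, which cuts at GATC. The labels used here do not say how Stag2 was deleted or what age and strain the mice were, nor whether each library came from a different mouse. All p-values therefore cover only library-to-library spread, which may be technical. The preparation holds several progenitor types, so a change in all cells and a change in the mix of cells cannot be told apart, and no gene expression was given with which to check the cells or the loss of Stag2. Read depth is unknown. The libraries had 118759 and 117486 scored bins in knock-out cells, against 120151 and 118162 in wildtype cells.

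The promoters are shown because Hi-C ends can only be captured where the enzyme cuts, at GATC. RefSeq promoters of GRCm38.p6, 250 bases before to 50 after the start, were matched for 3 of the 4 genes. All 4 sequences lie on the plus strand, and capitals mark GATC, which reads the same on both strands. They were at chr7:35119043-35119342 for Cebpa, chr2:167688665-167688964 for Cebpb, and chr8:120736108-120736407 and chr8:120738389-120738688 for both starts of Irf8, all in GRCm38.p6 and not comparable with the mm9 positions above.
Cebpa: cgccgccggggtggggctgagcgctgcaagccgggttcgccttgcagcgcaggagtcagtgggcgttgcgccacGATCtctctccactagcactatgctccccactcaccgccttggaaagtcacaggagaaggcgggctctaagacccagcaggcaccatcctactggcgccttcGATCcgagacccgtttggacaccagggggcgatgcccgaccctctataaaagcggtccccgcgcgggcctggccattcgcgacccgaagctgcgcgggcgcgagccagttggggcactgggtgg
Cebpb: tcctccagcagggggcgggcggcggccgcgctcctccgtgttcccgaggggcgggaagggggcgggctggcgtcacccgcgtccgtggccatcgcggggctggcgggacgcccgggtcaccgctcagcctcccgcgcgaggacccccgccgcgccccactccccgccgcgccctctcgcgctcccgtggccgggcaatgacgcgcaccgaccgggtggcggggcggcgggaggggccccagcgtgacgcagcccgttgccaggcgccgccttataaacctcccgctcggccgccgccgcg
Irf8, start 1: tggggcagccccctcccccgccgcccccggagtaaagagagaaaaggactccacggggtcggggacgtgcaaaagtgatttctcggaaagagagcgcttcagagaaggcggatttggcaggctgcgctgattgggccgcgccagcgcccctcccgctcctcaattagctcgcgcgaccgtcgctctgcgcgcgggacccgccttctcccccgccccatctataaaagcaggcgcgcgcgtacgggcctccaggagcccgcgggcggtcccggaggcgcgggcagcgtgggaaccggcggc
Irf8, start 2: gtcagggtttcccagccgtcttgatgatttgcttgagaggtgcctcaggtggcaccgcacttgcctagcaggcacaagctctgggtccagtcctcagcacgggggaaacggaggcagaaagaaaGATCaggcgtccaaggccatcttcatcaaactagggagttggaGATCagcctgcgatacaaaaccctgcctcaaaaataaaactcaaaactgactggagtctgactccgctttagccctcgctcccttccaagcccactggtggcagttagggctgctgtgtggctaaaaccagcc
The Cebpa promoter held 2 GATC, the Cebpb promoter and the first Irf8 promoter held 0, and the second Irf8 promoter held 2. Among 32851 promoters of the same length 48.0% held GATC. These matches describe letters in short windows, far below the 20 kb of a scored bin.

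A high insulation score marks a place that many contacts span relative to the neighbourhood, and a local minimum marks a domain boundary. The log base, the window size and how scores compare between chromosomes were not given. The loci sat at different points of this landscape in every library. Cebpb had the highest interval scores, followed by Spi1, Cebpa and Irf8, and no library of one locus overlapped a library of the next. By percentile of the mean score over all scored bins, the Cebpb bins lay between 93.9 and 97.7, the Spi1 bins between 84.9 and 90.2, the Cebpa bins between 78.3 and 85.3, and the Irf8 bins between 46.2 and 66.1. The first Cebpa bin, chr7:35880001-35900000, was the highest of its window, whereas the last Irf8 bin, chr8:123340001-123360000, was the lowest of its window.

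**Figure D1:**
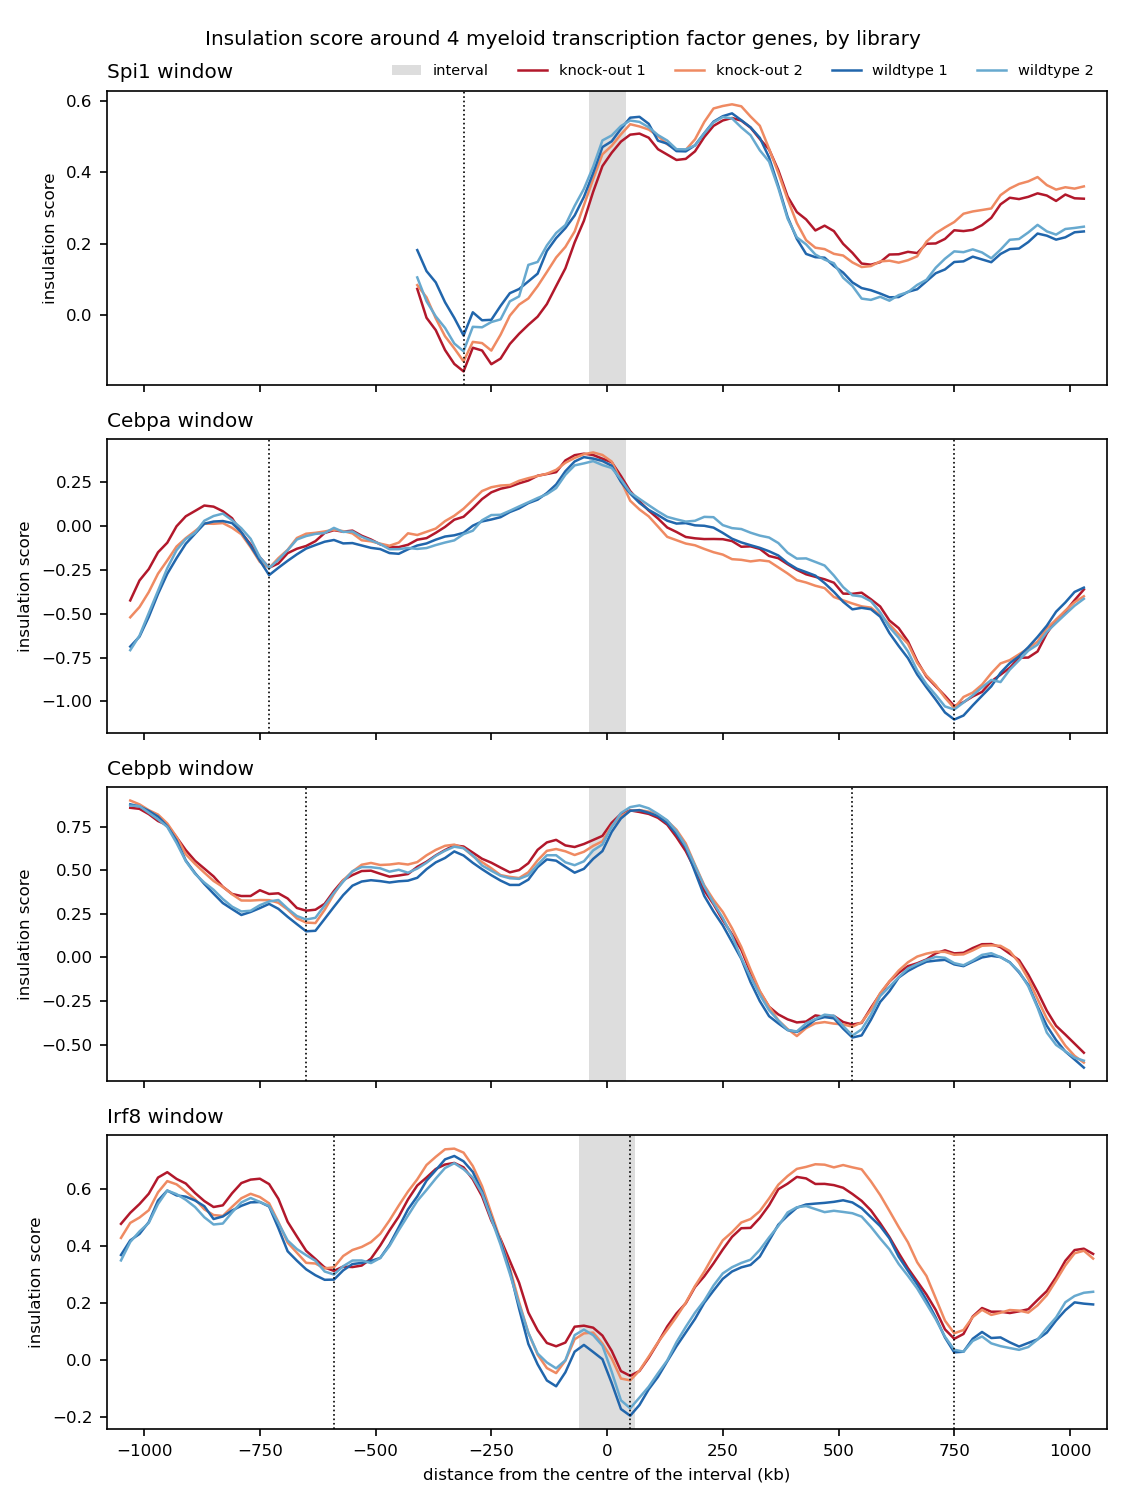
Insulation score (y axis) of each 20 kb bin against distance from the centre of the interval in kb (x axis), 1 line per library, with knock-out in red and orange and wildtype in blue. The interval is shaded grey and dotted lines mark boundaries. The Cebpa interval holds the highest bin of its window and the Irf8 interval the lowest, in a dip that both genotypes share, and the left of the Spi1 window has no scores.

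In knock-out cells the interval score was higher at Irf8, Cebpb and Cebpa and lower at Spi1, by 0.0278 to 0.0704 in size. At each locus both knock-out libraries lay on the same side of both wildtype libraries. Such separation is common, as 31.0% of single bins in the genome had both knock-out libraries above and 34.8% had both below. With 2 libraries a genotype the exact permutation test cannot go below p = 0.333, and all 4 loci gave that value. Over all 117252 bins the median difference, knock-out minus wildtype, was -0.00721, with 5% of bins below -0.175 and 5% above 0.163, so the interval differences lie well inside the range of the genome.

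The Irf8 interval scored 0.0431 and 0.0197 in the knock-out libraries, against -0.0603 and -0.0176 in the wildtype libraries. The genotypes did not overlap. The means were 0.0314 ± 0.0166 in knock-out and -0.0389 ± 0.0303 in wildtype (SD, n = 2 each), a difference of 0.0704 (exact permutation test, two-sided, p = 0.333). Between the libraries whose titles carry the suffix T1, of unstated meaning, the difference was 0.0373, and between those without it 0.103. With a running mean over 51 bins subtracted from each library the difference was -0.00576.

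The Cebpb interval scored 0.743 and 0.718 in the knock-out libraries, against 0.674 and 0.711 in the wildtype libraries. The lower knock-out library stood only just above the higher wildtype library. The means were 0.730 ± 0.0170 in knock-out and 0.692 ± 0.0258 in wildtype (SD, n = 2 each), a difference of 0.0382 (exact permutation test, p = 0.333). Here too the difference was unequal between the title pairs, 0.00789 with the suffix T1 and 0.0684 without it. It was 0.0199 without wildtype replicate 1, 0.00582 with libraries scaled to equal SD, 0.00587 with the running mean subtracted and -0.0128 after quantile normalization.

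The Cebpa interval scored 0.359 and 0.362 in the knock-out libraries, against 0.337 and 0.328 in the wildtype libraries. The libraries of each genotype lay close together and the genotypes did not overlap. The means were 0.360 ± 0.00236 in knock-out and 0.333 ± 0.00643 in wildtype (SD, n = 2 each), a difference of 0.0278 (exact permutation test, p = 0.333). The difference was 0.0139 with libraries scaled to equal SD, 0.0173 with the running mean subtracted and -0.00439 after quantile normalization.

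The Spi1 interval scored 0.426 and 0.453 in the knock-out libraries, against 0.470 and 0.485 in the wildtype libraries. Both knock-out libraries were below both wildtype libraries, so Spi1 ran the other way from the remaining loci. The means were 0.440 ± 0.0192 in knock-out and 0.477 ± 0.0107 in wildtype (SD, n = 2 each), a difference of -0.0375 (exact permutation test, p = 0.333). It was -0.0239 without knock-out replicate 1, -0.0106 with the running mean subtracted, -0.0573 with libraries scaled to equal SD and -0.0785 after quantile normalization.

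**Figure D2:**
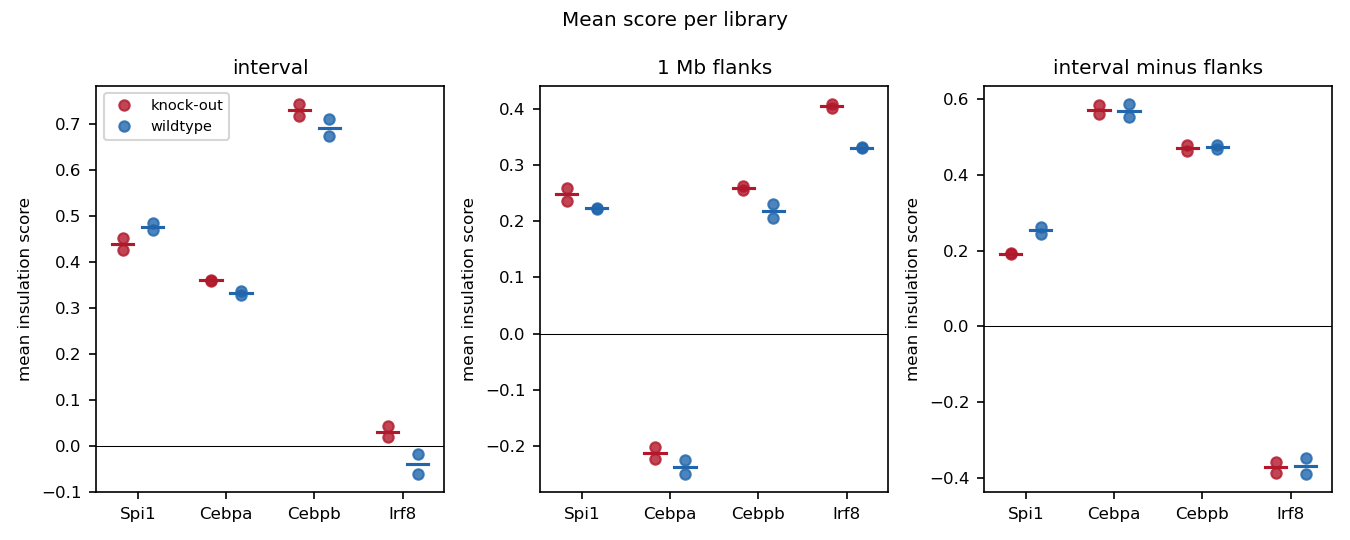
Mean insulation score (y axis) of the interval, of its 1 Mb flanks, and of the interval minus the flanks, by locus (x axis). Points are libraries, bars are means, knock-out is red and stands left of wildtype in blue. Interval scores do not overlap between genotypes at any locus, while the interval minus its flanks separates the genotypes at Spi1 alone among the 4. The Spi1 flanks are uneven, with 19 scored bins on the lower-coordinate side and 50 on the other.

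At Irf8, Cebpb and Cebpa the mean over both flanks differed in the same direction as the interval. The flanks of Irf8 scored 0.402 and 0.407 in knock-out, against 0.330 and 0.331 in wildtype, a difference of 0.0738 that is as large as that of the interval. The flanks differed by 0.0400 at Cebpb and by 0.0251 at Cebpa. These means pool sides that were not alike. The lower-coordinate side differed by 0.0416 and the higher by 0.106 at Irf8, and by 0.0464 and 0.0336 at Cebpb. At Cebpa the lower-coordinate side differed by 0.0723, while the higher gave -0.0221 with overlapping genotypes. After the flank mean was subtracted, the differences were -0.00347 at Irf8, -0.00185 at Cebpb and 0.00273 at Cebpa, with overlapping genotypes at each (exact permutation test, p = 1 each). At Spi1 the interval stood 0.190 and 0.194 above its flanks in knock-out, against 0.245 and 0.264 in wildtype, a difference of -0.0626 (exact permutation test, p = 0.333). The Spi1 flank mean pooled 19 scored lower-coordinate bins, with a difference of -0.0812, and 50 higher-coordinate bins, with 0.0655. The contrast at Spi1 also depended on how far the flank reached. With flanks of 500 kb it was -0.0150, and with flanks of 200 kb it was 0.0130.

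Single bins were tested with limma across the genome, with Benjamini-Hochberg adjustment over 117252 bins at 0.05. Over the genome 22.4% of bins were called, 11.2% higher in knock-out and 11.2% lower. In the 4 intervals 1 of 18 bins (5.56%) was called higher and 0 lower. An unadjusted p under 0.05 was reached by 2 of the 18, against 38.6% of bins in the genome. Neighbouring bins share contacts, so 18 bins are too few for a lower share to be read from these counts. Both knock-out libraries lay above both wildtype libraries in 11 of the 18 bins and below in 4, against 31.0% and 34.8% of bins in the genome. All 18 bins lay in 200 kb bins of positive wildtype eigenvector, by convention the open compartment. Over the 57855 such bins of the genome, 18.5% were called higher and 4.81% lower, and 46.8% had both knock-out libraries above. The median difference was 0.0318 over the 18 bins, against 0.0347 over these 57855.

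The called bin was the last of the Irf8 interval, chr8:123340001-123360000. It scored -0.0552 and -0.0710 in knock-out, against -0.195 and -0.169 in wildtype, a difference of 0.119 (95% interval 0.0359 to 0.202, limma adjusted p = 0.0456). The knock-out libraries were both above the wildtype libraries there, in a bin that was picked by its call. The call was lost without knock-out replicate 1, without either wildtype replicate, with the title suffix as a block and after a running mean was subtracted. Along the Irf8 interval the difference was larger towards the higher-coordinate end. It was 0.0271 in the first bin (adjusted p = 0.612), 0.0795 in the fourth (adjusted p = 0.140) and 0.105 in the fifth (adjusted p = 0.0685).

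In the other intervals no bin was called. The Cebpb differences ran the opposite way along the interval, 0.0673 in the first bin and 0.00387 in the last, with adjusted p between 0.143 and 0.932. The Cebpa differences were between 0.0126 and 0.0352, with adjusted p between 0.429 and 0.802. The Spi1 differences were between -0.0462 and -0.0296, with adjusted p between 0.299 and 0.493, and all 4 bins had both knock-out libraries below both wildtype libraries.

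**Figure D3:**
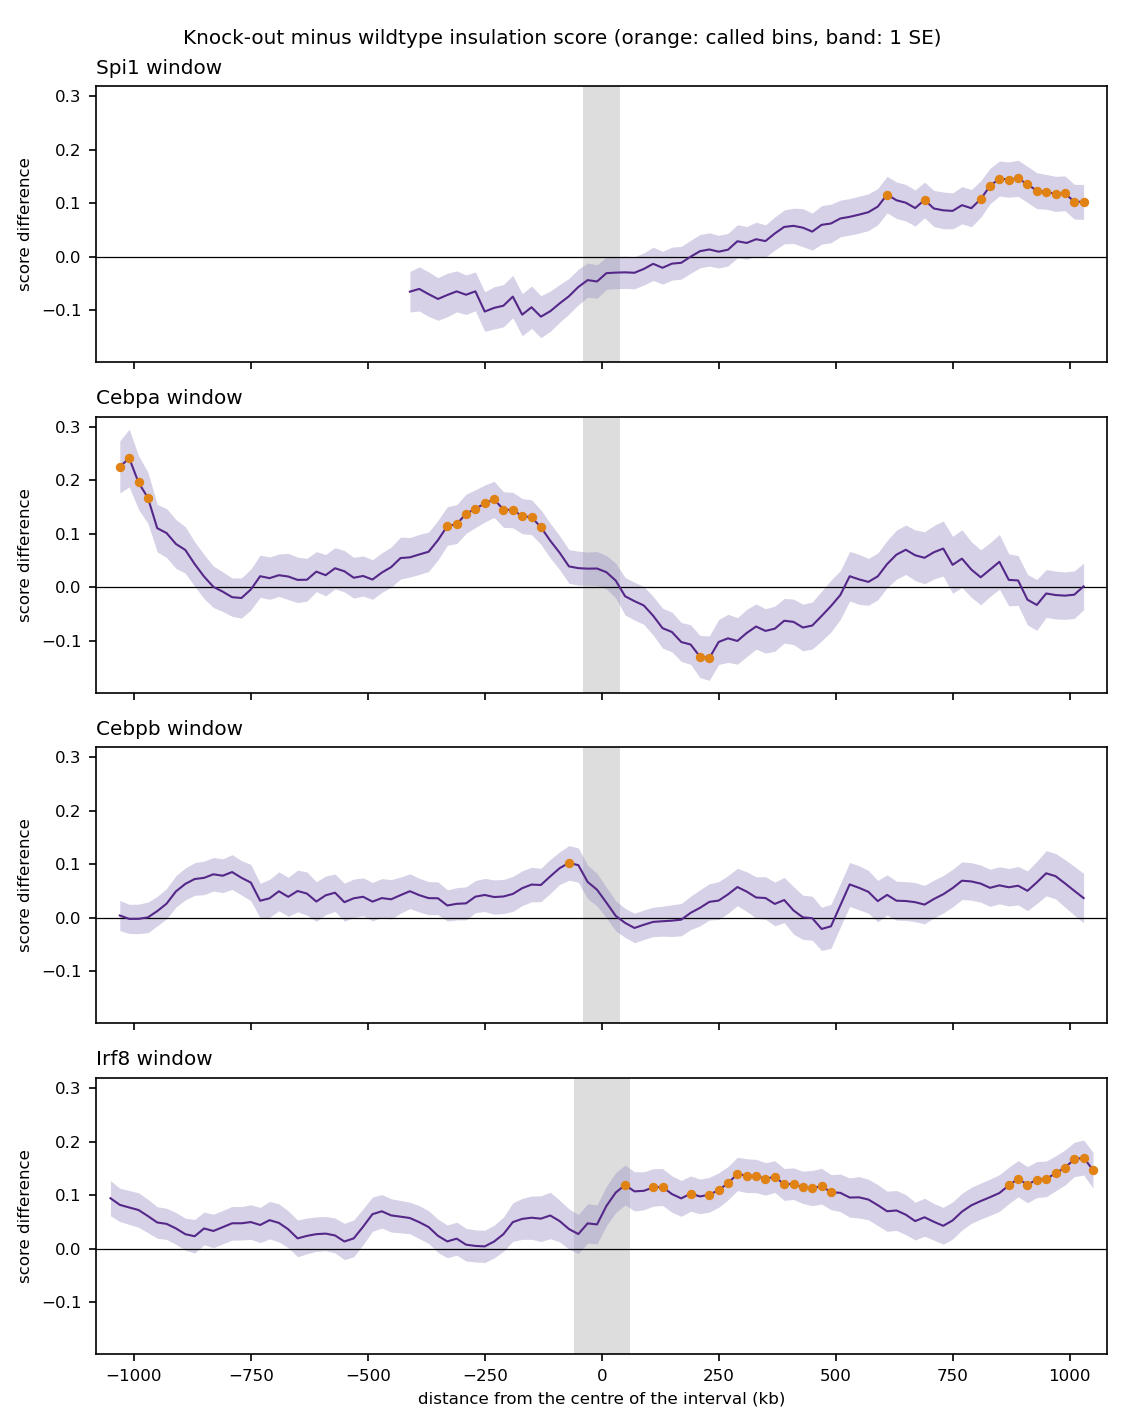
Knock-out minus wildtype insulation score (y axis) of each 20 kb bin against distance from the centre of the interval in kb (x axis). The band is 1 standard error of the limma fit, orange points are called bins and the interval is grey. The difference is above 0 in all 106 bins of Irf8, changes sign on the higher-coordinate side of Spi1 and of Cebpa, in opposite directions, and has 1 called bin at Cebpb.

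Most calls lay around the intervals. In the flanks 57 of 369 bins were called higher and 2 lower. Of the flank bins, 331 had a positive wildtype eigenvector, and 56 of these (16.9%) were called higher and 2 lower, against 18.5% higher and 4.81% lower over all such bins of the genome. The share of these bins called higher was 27.0% at Irf8, 20.3% at Spi1, 22.6% at Cebpa and 1 of 100 at Cebpb. With the broad trend of 51 bins taken out of each library, limma called 0 bins in the windows (53 at an unadjusted p under 0.05) and 0 in the genome (21874 at an unadjusted p under 0.05). The differences left over the runs of called bins named below were unequal. They were 0.106 over chr7:35580001-35800000, 0.132 over chr7:34880001-34960000 and 0.0558 over chr2:91740001-91980000. At Irf8 they were 0.0285 over chr8:123340001-123800000 and -0.00197 over chr8:124160001-124360000.

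The Irf8 window had the most calls, with 28 of 106 bins higher and 0 lower. The difference was above 0 in all 106 bins, and in 86 of them both knock-out libraries lay above both wildtype libraries. All its bins had a positive wildtype eigenvector, and over all such bins of the genome 65.3% had a difference above 0 and 46.8% had both knock-out libraries above. On the higher-coordinate side, towards Foxf1 in the annotation's order, the scores averaged 0.336 and 0.363 in knock-out, against 0.244 and 0.242 in wildtype, a difference of 0.106. All 50 bins of that side had non-overlapping genotypes, and 27 were called. On the lower-coordinate side the difference was 0.0416, and 0 of 50 bins were called, with 4 at an unadjusted p under 0.05.

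The Irf8 calls formed 2 runs. The run chr8:123340001-123800000 began in the last bin of the interval and held 18 called bins of 23. These scored 0.436 and 0.462 in knock-out, against 0.327 and 0.332 in wildtype, a difference of 0.119. The run chr8:124160001-124360000 began 800 kb past the interval and reached the edge of the window. Its 10 bins scored 0.275 and 0.266 in knock-out, against 0.125 and 0.136 in wildtype, a difference of 0.140. It held the bin with the largest difference of the window, chr8:124320001-124340000, at 0.170 (adjusted p = 0.00954). Both runs were averaged over bins called in these same libraries, so the separation of the genotypes there follows largely from that choice. Over all 23 bins of the first run the difference was 0.115, against 0.112 without wildtype replicate 1 and 0.119 without wildtype replicate 2. Over the second run it was 0.135 and 0.146 in the same order. Fewer bins were called without either wildtype library, in this window and over the whole genome.

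The Cebpa window had 15 bins called higher and 2 lower of 104, on opposite sides of the gene. The run nearest to the interval, chr7:35580001-35800000, ended 80 kb before it and held 11 called bins. They scored 0.187 and 0.209 in knock-out, against 0.0607 and 0.0613 in wildtype, a difference of 0.137 with adjusted p up to 0.0462. The wildtype libraries were almost equal and the knock-out libraries both stood above them, which follows largely from the choice of called bins. Past the interval the difference turned negative, and the 2 bins chr7:36120001-36160000, 160 kb away, scored -0.0746 and -0.140 in knock-out, against -0.00436 and 0.0508 in wildtype, a difference of -0.131. The difference was negative in the 24 bins next to the interval on that side, up to chr7:36440000, and positive again in the 19 bins after them. Over the whole higher-coordinate flank the genotypes overlapped, with -0.417 and -0.443 in knock-out against -0.423 and -0.393 in wildtype (exact permutation test, p = 0.667).

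The third group of Cebpa calls, chr7:34880001-34960000, lay at the far edge of the window, 920 kb away. Its 4 bins scored -0.283 and -0.408 in knock-out, against -0.556 and -0.550 in wildtype, a difference of 0.207. The knock-out libraries differed widely from each other but neither was as low as wildtype, in bins that were picked by their calls. Without wildtype replicate 1 the difference was 0.204 over these 4 bins and 0.137 over the run nearest to the interval. Without wildtype replicate 2 the values were 0.211 and 0.137. Leaving out either wildtype library lowered the number of bins called higher, in this window and over the whole genome. The lower calls numbered 7 without knock-out replicate 1 and 0 without any of the other 3 libraries.

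In the Spi1 window the difference also changed sign, in the opposite order. The scored part of the lower-coordinate flank averaged -0.0151 and 0.0364 in knock-out, against 0.103 and 0.0806 in wildtype, a difference of -0.0812. In 18 of its 19 bins both knock-out libraries were below both wildtype libraries, with 0 called and 8 at an unadjusted p under 0.05. Over all bins of the genome the shares were 34.8% with both knock-out libraries below and 38.6% at an unadjusted p under 0.05. These flank bins all had a positive wildtype eigenvector, and over such bins the share with both below was not counted. Falls were rarer there, with 4.81% called lower against 11.2% of all bins. Its largest difference was at chr2:90800001-90820000, 80 kb before the interval, with 0.0302 and 0.120 in knock-out, against 0.179 and 0.195 in wildtype (difference -0.112, adjusted p = 0.0643). Without knock-out replicate 2, 9 bins of the window were called lower.

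On the higher-coordinate side of Spi1 the scores averaged 0.331 and 0.344 in knock-out, against 0.270 and 0.274 in wildtype, a difference of 0.0655, and 14 of 50 bins were called higher. Of these, 12 formed the run chr2:91740001-91980000, 760 kb past the interval and at the edge of the window, which scored 0.317 and 0.350 in knock-out, against 0.199 and 0.218 in wildtype (difference 0.125). The bins of that run were picked by their calls, so the separation of the genotypes along it follows largely from that choice. Without wildtype replicate 1 the difference over the run was 0.116, and without wildtype replicate 2 it was 0.134. Fewer bins were called in both cases, here and over the whole genome.

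The Cebpb window had the fewest calls of the 4. There, 1 of 104 bins was called, chr2:167440001-167460000, 20 kb before the interval, with 0.634 and 0.588 in knock-out, against 0.487 and 0.530 in wildtype (difference 0.103, adjusted p = 0.0459). The window had 0 calls under every alternative run except leaving out knock-out replicate 2, which gave 4. The difference was nevertheless above 0 in 92 of 104 bins, with both knock-out libraries above both wildtype libraries in 67 and below in 0. For comparison, 46.8% of all bins with a positive wildtype eigenvector had both knock-out libraries above.

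Domain boundaries were taken as minima of the mean profile of the 4 libraries, at least 0.2 deep, where depth is the rise from the minimum to the mean of the highest scores within 200 kb on each side. The windows held 8 of the 1943 boundaries found in the genome. None of the 8 passed limma's test of depth at an adjusted p of 0.05, and 0 had an unadjusted p under 0.05. In the genome 0.823% of boundaries were called. By the mean, 5 of the 8 were shallower in knock-out, with a median difference of -0.00986, against -0.0206 over all boundaries.

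Irf8 was the locus with a boundary inside its interval, in the last bin, chr8:123340001-123360000. Its depth was 0.309 and 0.329 in knock-out, against 0.364 and 0.374 in wildtype. Both knock-out libraries were shallower, by 0.0499 on average (difference -0.0499, 95% interval -0.123 to 0.0237, limma adjusted p = 0.492). In the genome 33.7% of boundaries had both knock-out libraries below both wildtype libraries. The minimum fell in the same bin in all 4 libraries, and in the 10 kb profiles in the same bin, chr8:123350001, in both genotypes. The boundary 680 kb beyond, at chr8:124040001-124060000, went the other way, with 0.325 and 0.354 in knock-out, against 0.288 and 0.271 in wildtype (difference 0.0599, adjusted p = 0.367). In the genome 15.2% of boundaries had both knock-out libraries above both wildtype libraries. The boundary 520 kb before the interval, at chr8:122700001-122720000, had overlapping depths, 0.325 and 0.308 in knock-out against 0.309 and 0.282 in wildtype. The domain between it and the boundary in the interval was 640 kb long and scored 0.350 and 0.352 in knock-out, against 0.304 and 0.315 in wildtype, with 0 bins called.

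**Figure D4:**
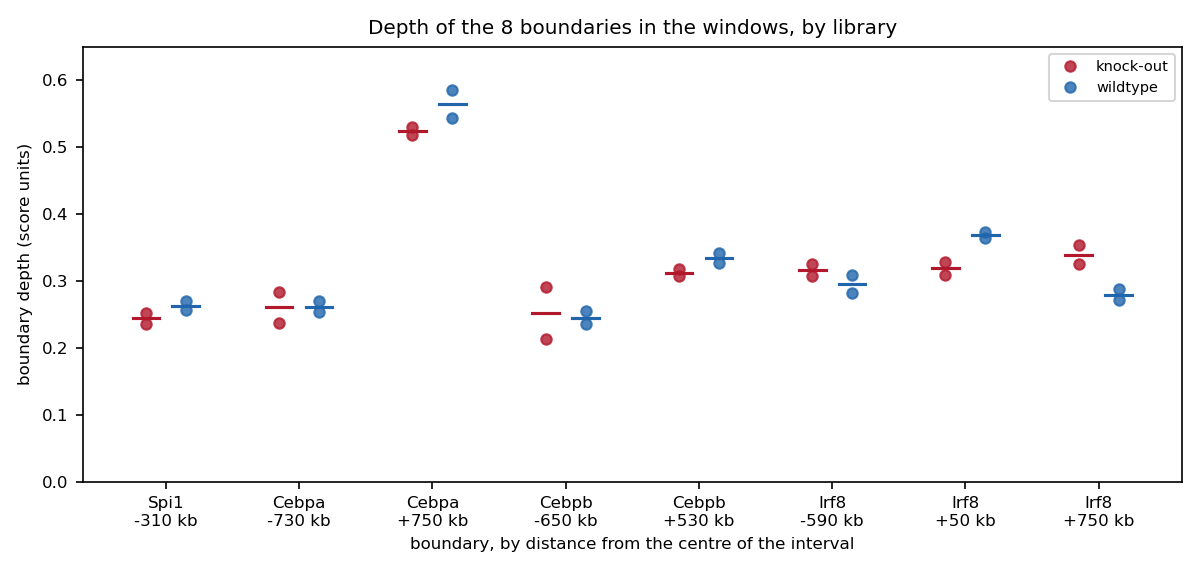
Depth in score units (y axis) of the 8 boundaries in the windows (x axis, named by locus and distance from the centre of the interval). Points are libraries, bars are means, knock-out is red and stands left of wildtype in blue. The Irf8 boundary inside the interval is shallower in both knock-out libraries and the one beyond it deeper, and no difference passed the test.

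The Cebpa domain ran from the boundary at chr7:35180001 to that at chr7:36660001, 1480 kb, with the gene near its middle. The far boundary was the deepest of the 8, with 0.530 and 0.518 in knock-out, against 0.585 and 0.543 in wildtype (difference -0.0404, adjusted p = 0.687). The near one had overlapping depths, 0.284 and 0.238 in knock-out against 0.254 and 0.270 in wildtype. Both minima fell in the same bin in all 4 libraries.

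The Cebpb domain, chr2:166860001 to chr2:168040001, was 1180 kb long. The boundary past the gene had depths of 0.307 and 0.318 in knock-out, against 0.327 and 0.343 in wildtype (difference -0.0226, adjusted p = 0.767). Its trough had a pair of minima 120 kb apart, at chr2:167920001-167940000 and chr2:168040001-168060000. The score at the later minimum minus that at the earlier one was -0.0119 and 0.0535 in the knock-out libraries, against -0.0319 and -0.0237 in the wildtype libraries. The later minimum was the lower one in 3 libraries, and the earlier one in knock-out replicate 2. In the 10 kb profiles the trough was lowest near the earlier minimum in both genotypes, at chr2:167920001 in knock-out and at chr2:167910001 in wildtype. The pair was picked out after its values were seen and was not tested.

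The first Cebpb boundary had depths of 0.213 and 0.291 in knock-out, which enclosed the 0.255 and 0.236 of wildtype. The Spi1 boundary at chr2:90620001-90640000, 260 kb before the interval, had depths of 0.236 and 0.253 in knock-out, against 0.256 and 0.270 in wildtype (difference -0.0188, adjusted p = 0.782). It stands at the edge of the unscored stretch, with 5 of the 10 bins on that side scored, so its depth rests on an incomplete flank. Its 20 kb minimum fell in the same bin in all 4 libraries. In the 10 kb profiles the minimum was at chr2:90590001 in knock-out and at chr2:90620001 in wildtype. With 1 profile a genotype, that shift was not tested.

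The 10 kb profiles, with no replicates, had the same sign as the 20 kb scores at each interval. They may rest on the same libraries as those scores. The Irf8 interval averaged 0.121 in knock-out and 0.0788 in wildtype, and was higher in knock-out in 12 of 12 bins. The Cebpa interval averaged 0.502 in knock-out and 0.464 in wildtype, higher in 8 of 8 bins. The Cebpb interval averaged 0.724 in knock-out and 0.695 in wildtype, higher in 6 of 8 bins. The Spi1 interval averaged 0.440 in knock-out and 0.447 in wildtype, lower in 6 of 8 bins, and its difference of -0.00688 was far smaller than at 20 kb. The flanks were mostly higher in knock-out too, in 192 of 200 bins at Irf8 and 172 of 200 at Cebpb. At Cebpa it was 135 of 200 flank bins and at Spi1 113 of 191. The mean flank difference was 0.0597 at Irf8, 0.0346 at Cebpb, 0.0308 at Cebpa and 0.0140 at Spi1. The median over all 227822 bins was -0.00583, and the share of them higher in knock-out was not counted.

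The compartment eigenvector, 1 profile a genotype in 200 kb bins, was positive at all 4 genes in both genotypes. At Spi1 it was 0.0454 in knock-out and 0.0431 in wildtype, and at Cebpa 0.0466 in knock-out and 0.0447 in wildtype. At Cebpb it was 0.0401 in knock-out and 0.0369 in wildtype, and at Irf8 0.0485 in knock-out and 0.0476 in wildtype. Its scale differs between chromosomes, so ranks are given within each chromosome. Spi1 stood at percentile 97.7 in knock-out and 96.6 in wildtype, near the top of its chromosome. Irf8 stood at percentile 90.2 in knock-out and 91.6 in wildtype, Cebpb at 88.1 in knock-out and 84.6 in wildtype, and Cebpa at 81.7 in knock-out and 81.4 in wildtype. The differences were 0.0222 to 0.0936 of the SD of their chromosome. Of the 43 bins of the windows, 0 changed sign between genotypes.

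**Figure D5:**
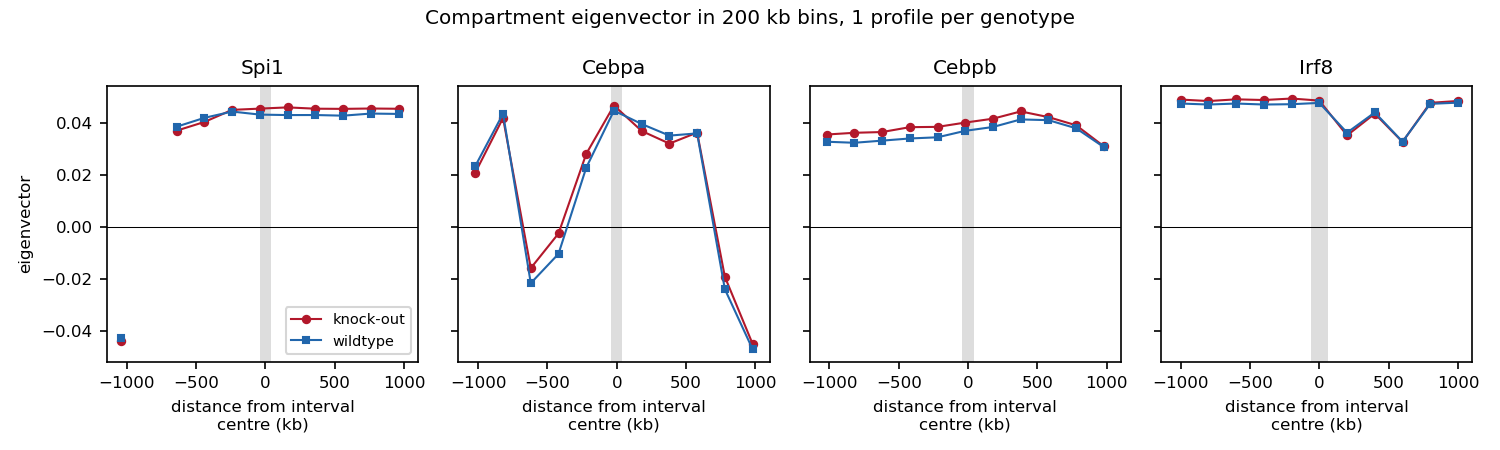
Compartment eigenvector (y axis) of 200 kb bins against distance from the centre of the interval in kb (x axis), knock-out in red and wildtype in blue, 1 profile a genotype. Both genotypes follow the same course, Cebpa lies on a peak between negative stretches, and 1 bin of the Spi1 window has no value.

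The eigenvector windows differed among the loci more than between genotypes. All 11 bins around Cebpb and all 11 around Irf8 were positive, whereas 7 of 11 around Cebpa and 9 of 10 around Spi1 were. Knock-out was the higher genotype in all 11 bins of the Cebpb window, in 8 of 11 at Irf8, in 7 of 11 at Cebpa and in 7 of 10 at Spi1. Among the positive bins of chromosome 2, which holds Cebpb and Spi1, 55.0% were higher in knock-out. On chromosome 8, which holds Irf8, the share was 54.0% of positive bins and 50.9% of all bins. On chromosome 7, which holds Cebpa, it was 57.0% of positive bins and 53.2% of all bins. Neighbouring bins share their contacts, and without replicates these counts are a description.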

How the data were processed

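Insulation scores of single libraries (20 kb bins), insulation scores of 1 profile per genotype (10 kb) and compartment eigenvectors of 1 profile per genotype (200 kb) were deposited by the authors, each treated as a score. Per the submitters' processing notes the build is mm9. The sources used here do not give the aligner, read filters, balancing, pooling or insulation window. Differences in the deposited files run as knock-out minus wildtype.

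Groups came from the genotype label, and replicate numbers follow accession order and pair nothing. Bins scored in all 4 libraries were tested with limma 3.58.1 in R 4.3.3 (lmFit, eBayes with a trend, genotype only), with Benjamini-Hochberg adjustment at 0.05, and interval means with exact permutation tests. The fit was tested on simulated data. Called bins within 50 kb were joined, and runs of at least 3 were named, with every interval bin, boundary and the most extreme bins of a window. Smaller groups and single bins were named after their values were seen. The members and lists were chosen with earlier results of these data known. The planned list of other myeloid genes had no positions in the build of the files and was not analysed here. Alternatives were leaving out libraries, a title-suffix block, eBayes without a trend, other scalings, flanks and boundary rules.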

Additional observations from a re-analysis of the deposited data

How the results depend on the processing

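Having 2 libraries a genotype, unknown read depth and 1 profile a genotype at 10 kb and 200 kb limits all values, and neighbouring bins share contacts. Of the alternatives, 188 were rated the same, 37 moved a count or value and 18 reversed a difference. A rating of the same allowed some change in a count, such as from 28 to 19 bins called higher in the Irf8 window without a trend. Where a library was left out, the lone one was assumed to vary like the other genotype. Leaving out a wildtype library lowered the number of calls over the whole genome too. The causes were not tested. Interval differences reversed with quantile normalization at Cebpa (-0.00439) and Cebpb (-0.0128), and with the running mean subtracted at Irf8 (-0.00576), while the Spi1 difference was -0.0785 with quantile normalization and -0.0106 with the running mean subtracted. The interval minus flanks reversed at Spi1 with flanks of 200 kb (0.0130) and at Cebpb with flanks of 500 kb (0.00608) and 200 kb (0.00454), and leaving out 1 library moved it between -0.0140 and 0.0194 at Cebpa, between -0.00982 and 0.00612 at Cebpb and between -0.0242 and 0.0173 at Irf8. Leaving out 1 library gave 0 to 1 bins called higher in the intervals, 0 to 14 in the Spi1 window, 2 to 16 at Cebpa, 0 to 4 at Cebpb and 0 to 31 at Irf8, and 0 to 9 called lower at Spi1 and 0 to 7 at Cebpa. With the running mean subtracted no window had a call (0 higher and 0 lower). Quantile normalization gave 2 higher in the intervals, 6 at Spi1, 17 at Irf8 and 0 at Cebpb, and 0 lower at Cebpa. Without a trend there were 8 higher at Spi1, 0 higher at Cebpb and 0 lower at Cebpa, and with libraries scaled to equal SD 0 higher at Cebpb and 0 lower at Cebpa. The replicate block (title suffix T1), where the labels give no pairing, gave 0 calls in the intervals and 0 at Cebpb, against 1 each without it, and 10 higher at Spi1, 13 at Cebpa and 23 at Irf8. The depth difference of the first Cebpa boundary was between -0.0242 and 0.0224 and that of the first Cebpb boundary between -0.0322 and 0.0455 when 1 library was left out, and the Cebpb value was -0.00670 with scaled libraries, and the second Cebpa boundary gave 0.0139 with minima over 5 bins. No boundary was called under any setting run, with 2 at an unadjusted p under 0.05 with minima over 5 bins. Minima over 5 bins found no match for the Spi1 boundary, the first Cebpb boundary and both Irf8 boundaries outside the interval, and the knock-out profile alone found none within 40 kb of the second Cebpb boundary. The mean eigenvector difference over the Spi1 window was 0.00104, against 0.00230 in the bin of the gene.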
